A study of Apis mellifera with 6 samples.

Results

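Candidate reference genes for honey bees fed halofuginone were sought among the midgut genes that varied least between libraries. Of 10041 listed genes, 3938 had a mean normalised count of 500 to 5000 over the 6 libraries, and 10 of these were left out by the start of their symbols. The starts left out are those of heat shock, ribosomal, troponin, detoxification, antioxidant, immune, tRNA and microRNA genes. Of the 3928 eligible genes, the 100 with the smallest standard deviation (SD) of log2(normalised count + 1) over all 6 libraries are called stable genes here. The choice used these same values, so the small spread and small group difference of the stable genes describe how they were picked and are no test of their stability.

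The halofuginone group was 3 midguts of adult bees fed 200 uM halofuginone with 0.5% DMSO in sucrose for 24 h, and the DMSO control group was 3 midguts of bees fed sucrose with 0.5% DMSO for the same time. Each library came from the midgut of 1 bee. The study's methods state that bees of 1 experiment came from a single outbred colony. For its quantitative PCR they add that repeat trials used other colonies on other days. The labels name no colony, day or trial, so whether all these bees shared a colony is not known. The spread between libraries therefore holds differences between bees, any between colonies or days, and technical variation. With 1 library per bee these cannot be separated. The libraries are called Halofuginone 2, 3 and 4 and Control 1, 2 and 3, as they were labelled. Poly(A) RNA was sequenced with paired reads of 150 bp.

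A reference gene is the yardstick of quantitative PCR: the level of a gene of interest is given relative to a gene whose own level should not move with the treatment. Genes of the cytoskeleton, of glycolysis, of the ribosome and of translation elongation are often used for this in insects. Halofuginone inhibits the enzyme that joins proline to its tRNA and so switches on the integrated stress response, which lowers protein synthesis.

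Depth was similar across libraries, with 23305398 to 26278866 recovered reads over the listed genes and 6 to 15 genes at 0 in each. Over all genes, limma on log2(normalised count + 1) called 238 genes, 168 higher and 70 lower in the halofuginone group. A call needed an adjusted p under 0.05 and at least a doubling or its inverse, a log2 fold change beyond 1 in either direction. Without Halofuginone 4, Control 2 or Control 3 the same test called 126, 63 and 47 genes. Summed normalised counts of 6 muscle genes were 4736 to 8519 in the halofuginone libraries and 5303 to 8864 in the controls. Those of 5 fat body genes were 453 to 721 in the halofuginone libraries and 735 to 973 in the controls, so the groups did not overlap. Those of 3 hypopharyngeal gland genes, found of 10 listed, were 2160 to 3035 in the halofuginone libraries and 2866 to 4974 in the controls. Among these, Hbg3 had 544, 458 and 598 in the halofuginone libraries and 1244, 1706 and 1834 in the controls. Its groups did not overlap, while those of Mrjp7 and Mrjp8 did. The photoreceptor gene Uvop, the only 1 found of 4, had 458 to 1067 in the halofuginone libraries and 547 to 935 in the controls. No gene found was at 0 in every library. In such bulk samples fewer cells of a type and less RNA per cell cannot be told apart. The label midgut was not checked against a marker, because Hbg1, the only midgut gene listed, had no match by symbol. The part of other tissues in the results was not tested.

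The stable genes stayed within a narrow band in every library. Their SD of log2(normalised count + 1) ran between 0.033 and 0.084, with a median of 0.069, against a median of 0.24 and a maximum of 2.96 for the eligible genes. The highest of the 6 libraries exceeded the lowest by 1.14-fold in the median stable gene and by 1.55-fold in the median eligible gene. Among the stable genes this ratio was 1.05 to 1.19. A limit of 1.1-fold between highest and lowest was met by 14 genes, each of them a stable gene, and a limit of 1.2-fold by all 100 stable genes and by 208 eligible genes. Ranked among all 10041 listed genes, whatever their level, the stable genes lay between place 1 and place 140.

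**Figure D1:**
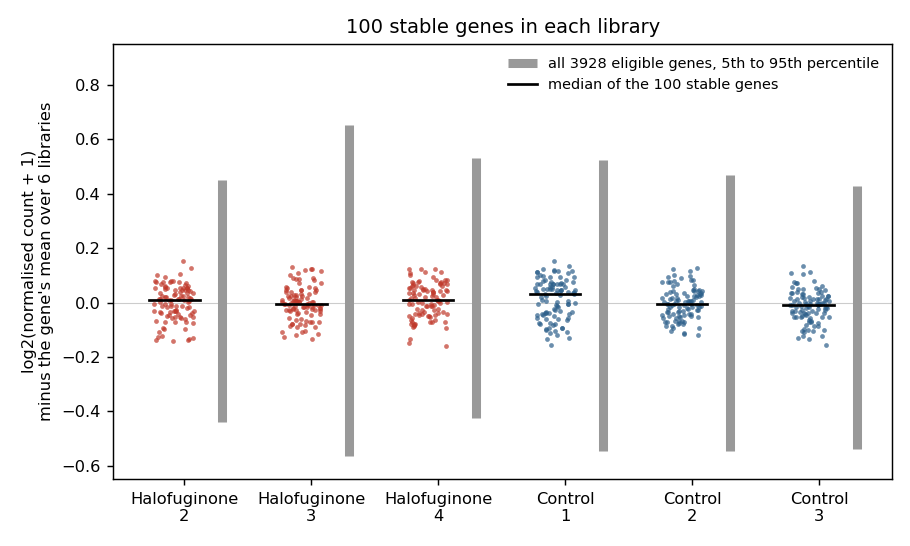
Each point is 1 of the 100 stable genes in 1 library, as log2(normalised count + 1) minus the gene's mean over the 6 libraries; halofuginone libraries are red and DMSO controls blue, black lines are medians and grey bars span the 5th to 95th percentile of the 3928 eligible genes. The points stay between -0.16 and 0.15, and the medians between -0.01 in Control 3 and 0.03 in Control 1.

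LOC408433 had the smallest spread, an SD of 0.033. It had 4349, 4195 and 4180.0 normalised counts in Halofuginone 2, 3 and 4 and 4096, 4305 and 4152 in Control 1, 2 and 3. The groups overlapped, and the log2 difference of halofuginone from DMSO was 0.02. LOC727312, next with an SD of 0.034, had 2939, 2795 and 2800.3 normalised counts in the halofuginone libraries and 2842, 2941 and 2906 in the controls. Its lowest library and its highest differed by 1.05-fold, the smallest ratio among the eligible genes. Neither of these genes, nor any other stable gene but 1, has a descriptive name in the files or in the gene table used, so their products are not described here.

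LOC551742 had 1619, 1711 and 1709.8 normalised counts in the halofuginone libraries and 1663, 1629.8 and 1624 in the controls. LOC551694 had 1262, 1282 and 1286 normalised counts in the halofuginone libraries and 1272, 1333 and 1342 in the controls. LOC409084 had 2065, 1964 and 1906 normalised counts in the halofuginone libraries and 1936, 1933 and 1937 in the controls. In the last of these the 3 controls lay within 5 normalised counts of each other and the halofuginone libraries were more spread out. LOC409427 had 2754, 2606 and 2613 normalised counts in the halofuginone libraries and 2507, 2615 and 2552 in the controls.

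The 4 other genes of the first 10 were counted less deeply, with a mean normalised count under 1000. LOC409647 had 654, 672 and 661 normalised counts in the halofuginone libraries and 704, 677 and 694 in the controls. It was the only gene of the first 10 whose groups did not overlap, with each halofuginone library below each control. LOC552569 had 596, 589 and 615 normalised counts in the halofuginone libraries and 611, 568 and 595 in the controls. LOC551841 had 715, 727 and 697 normalised counts in the halofuginone libraries and 754, 696 and 725 in the controls. LOC409075 had 668, 669.6 and 709 normalised counts in the halofuginone libraries and 654, 657 and 689 in the controls. The log2 difference of the first 10 genes ran between -0.06 in LOC409647 and 0.05 in LOC409427, and the groups overlapped in all but LOC409647.

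The place at which the list ends is not marked by a step in the values. Just inside it were LOC552626, LOC408793 and LOC413699, with SDs of 0.0836, 0.0838 and 0.0841, and just outside it LOC408783, LOC412445 and LOC725909, with SDs of 0.0842, 0.0845 and 0.0849. LOC413699, at place 100, had 672, 592 and 588 normalised counts in the halofuginone libraries and 607, 608 and 565 in the controls. LOC408783, at place 101, had 2015, 1814 and 1875 normalised counts in the halofuginone libraries and 1923, 2101 and 2073 in the controls. The SDs of these 2 genes are both 0.084, so the length of the list is set by the number 100 and by no gap in the values.

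Part of the spread is the error of counting reads. For a gene with a given number of reads this error alone gives an SD on the log2 scale, whose median was 0.045 for the stable genes and 0.044 for the eligible genes. The observed SD was 1.55 times the counting SD in the median stable gene and 5.84 times in the median eligible gene. In 8 genes, all of them stable genes, the observed SD was at or below that of counting: LOC551694, LOC409647, LOC552569, LOC551841, LOC409075, LOC551427, LOC409298 and LOC552019. The rule picked genes for a small SD in these same libraries, which favours an SD below that of counting. Nothing is therefore read from these 8 about variation between bees, and it is not said to be absent. In 23 stable genes the SD was over 2 times the counting SD, and the ratio reached 4.01 in LOC724808.

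**Figure D2:**
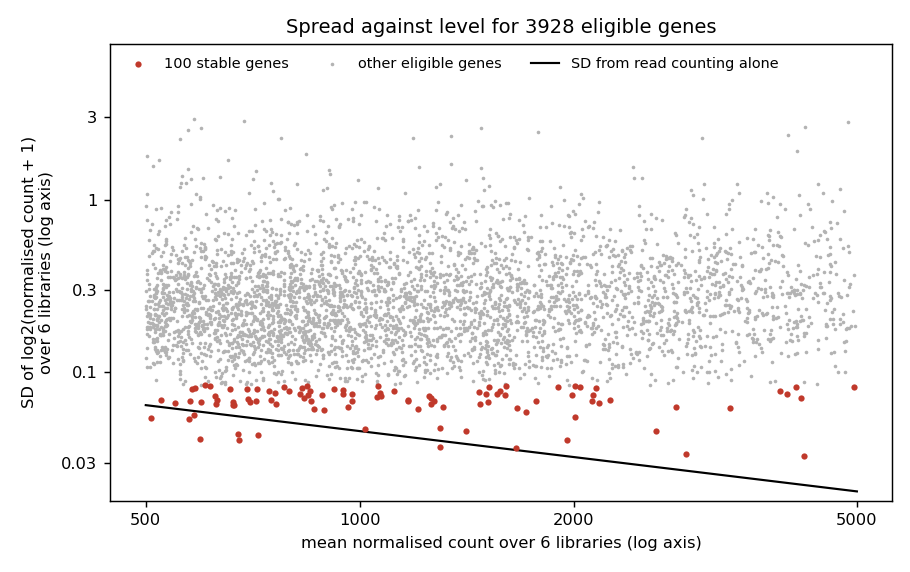
Each point is 1 of the 3928 eligible genes, with its mean normalised count over the 6 libraries and its SD of log2(normalised count + 1), both on log axes; stable genes are red, other genes grey, and the line is the SD that counting reads alone would give at 1 read per normalised count. The stable genes form the lower edge at every level, between SDs of 0.033 and 0.084, and 8 of them had an SD no larger than that from counting their own reads.

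Stable genes were found across the whole range of levels. Their mean normalised count, which is not corrected for gene length, ran between 508.9 and 4959 with a median of 1036, against a median of 1123 for the eligible genes. A mean of 500 to 1000 was held by 49% of the stable genes and 44.1% of the eligible genes, a mean of 1000 to 2000 by 33% of the stable and 32.4% of the eligible genes, and a mean of 2000 to 5000 by 18% of the stable and 23.5% of the eligible genes. The median SD of the stable genes was 0.070, 0.069 and 0.070 in these 3 classes. The stable gene with the highest mean, LOC724808, had 4910.4, 5245 and 4695 normalised counts in the halofuginone libraries and 5383, 4755 and 4767 in the controls. LOC408433, described above, had a mean of 4213 normalised counts, and LOC408837 had 4334, 4330.2 and 4227 in the halofuginone libraries and 3798, 4129 and 4243 in the controls. Control 1 was the extreme library in both LOC724808 and LOC408837, the highest in one and the lowest in the other. The stable gene with the lowest mean, LOC409298, had 516, 519 and 491 normalised counts in the halofuginone libraries and 536, 483 and 508 in the controls. LOC726444 had 542, 525 and 552 normalised counts in the halofuginone libraries and 541, 491 and 499 in the controls, and LOC727122 had 512, 542 and 580.3 in the halofuginone libraries and 535, 574 and 550.0 in the controls.

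Only 1 stable gene has a descriptive symbol. Tpi, which encodes the glycolytic enzyme triosephosphate isomerase, stood at place 90 with an SD of 0.082. It had 4056, 4447 and 4339.7 normalised counts in the halofuginone libraries and 3894, 3881 and 4003 in the controls. Each halofuginone library was above each control, the means were 4281 ± 202 in the halofuginone libraries and 3926 ± 67.0 in the controls (SD, n = 3 each), and the log2 difference of 0.12 was the second most positive among the stable genes. Of the 3928 eligible genes 84 have a symbol that does not begin with LOC, with a median place of 2455.5 by SD. The next of these by place, named after their values were seen, was arm, the β-catenin gene armadillo of cell junctions and Wnt signalling, at place 254 with an SD of 0.11. It had 2111, 2407 and 2208 normalised counts in the halofuginone libraries and 2564, 2274 and 2482 in the controls, and the groups overlapped.

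Halofuginone and DMSO libraries differed little in the stable genes, as the rule required. The log2 difference ran between -0.11 and 0.13, above 0 in 55 genes and below 0 in 45, and its absolute value had a median of 0.04, against 0.26 in the eligible genes. limma called 2.37% of all genes, 3.34% of the eligible genes and 0 of the 100 stable genes. At an adjusted p under 0.05 without a limit on fold it passed 6.88% of all genes, 12.1% of the eligible genes and 0 stable genes. At an unadjusted p under 0.05 it passed 23.7% of all genes and again 0 stable genes, and DESeq2 and edgeR gave 0 stable genes at each of these limits too. Since the rule kept these differences small, nothing is read from the counts of 0. The 95% intervals of limma reached 0.25 to either side of the estimate in the median stable gene, against 0.34 in the median eligible gene, and the outermost bound of any stable gene was 0.38. The rule picked these estimates on the same libraries, so the intervals are no 95% limits on the true differences of the stable genes.

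The most positive difference among the stable genes was 0.13 in LOC100577746, which had 589, 631 and 597 normalised counts in the halofuginone libraries and 543, 568 and 552 in the controls. LOC724937, with a difference of 0.11, had 577, 634 and 614 normalised counts in the halofuginone libraries and 542, 566 and 583 in the controls. The groups did not overlap in LOC100577746 and overlapped in LOC724937. The most negative difference was -0.11 in LOC551762, which had 771, 825 and 782 normalised counts in the halofuginone libraries and 834, 838 and 889.7 in the controls. LOC413240, also at -0.11, had 662, 676 and 672 normalised counts in the halofuginone libraries and 753, 718 and 693 in the controls. Both had every halofuginone library below every control. LOC552626 had 812, 798 and 828 normalised counts in the halofuginone libraries and 935, 821 and 864 in the controls, which overlapped.

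A difference can be small and still separate the groups. Over all listed genes 30.6% had groups that did not overlap, over the eligible genes 40.6%, and among the stable genes there were 10. Halofuginone was higher in 4 of these, LOC409725, LOC412093, LOC100577746 and Tpi, beside 15.9% of all genes. It was lower in 6, LOC409647, LOC552019, LOC408591, LOC551486, LOC413240 and LOC551762, beside 14.7% of all genes. The rule chose against such a separation, so nothing is read from these counts. A group difference in a reference gene carries over to any gene measured against it, and in these 10 genes it came to 0.13 at most on the log2 scale.

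No library was extreme in most stable genes, but Control 1 was the highest more often than the others. It was the highest library in 30 stable genes, against 17, 14 and 18 in Halofuginone 2, 3 and 4 and 13 and 8 in Control 2 and 3. The median deviation of the stable genes from their own means was 0.01, -0.0039 and 0.0098 in Halofuginone 2, 3 and 4 and 0.03, -0.0037 and -0.009 in Control 1, 2 and 3. Among the eligible genes Control 1 was the highest library in 23.1%. The stable genes together took 0.513% to 0.633% of the recovered reads of a library.

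Under the deposited scaling, geometric means of several stable genes varied less than the first gene alone. The geometric mean of the 100 stable genes was 1145, 1143 and 1152 normalised counts in Halofuginone 2, 3 and 4 and 1155, 1143 and 1135 in Control 1, 2 and 3, an SD of 0.0091 on the log2 scale. The geometric mean of the first 10 genes had an SD of 0.0064, that of the first 3 an SD of 0.013, that of the first 30 an SD of 0.014, and LOC408433 alone 0.033. These values rest on the libraries and the scaling that chose the genes. The mean log2 value of the 100 had an SD of 0.028 under the upper quartile and 0.11 under library totals, where the median single stable gene had 0.070 and 0.13.

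The spread was larger in a library that took no part in the choice. When 100 genes were chosen by the same rule on 5 libraries, their SD over those 5 had a median of 0.052 to 0.069. The left-out library then deviated from the mean of the 5 by a median of 0.12, 0.16 and 0.11 in Halofuginone 2, 3 and 4 and of 0.16, 0.087 and 0.086 in Control 1, 2 and 3. An SD over 5 libraries and a deviation of 1 library are unlike measures, so these values do not give how much larger the spread was. The left-out library also took part in the deposited size factors. The same deviation over all eligible genes had a median of 0.19, 0.23 and 0.21 in Halofuginone 2, 3 and 4 and of 0.23, 0.21 and 0.20 in Control 1, 2 and 3. In each of the 6 cases the chosen genes deviated less than the eligible genes, with a mean over the 6 cases of 0.12 against 0.21, and more than counting alone would give, 0.030 to 0.034.

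Within 1.2-fold of the mean of the other 5 were 88, 74 and 90 of the 100 chosen genes in Halofuginone 2, 3 and 4, and 76, 95 and 95 in Control 1, 2 and 3, against 55.3% to 63.6% of the eligible genes. Over 1.5-fold away were 1, 3 and 0 genes in Halofuginone 2, 3 and 4, and 2, 0 and 0 in Control 1, 2 and 3. Halofuginone 3 and Control 1 were thus the libraries that genes chosen without them predicted least closely. In Control 1 the deviation went mostly upward, with a median of 0.11 for the chosen genes against 0.0069 for the eligible genes. The 6 choices share 4 of 5 libraries with each other, so these values are not independent.

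**Figure D3:**
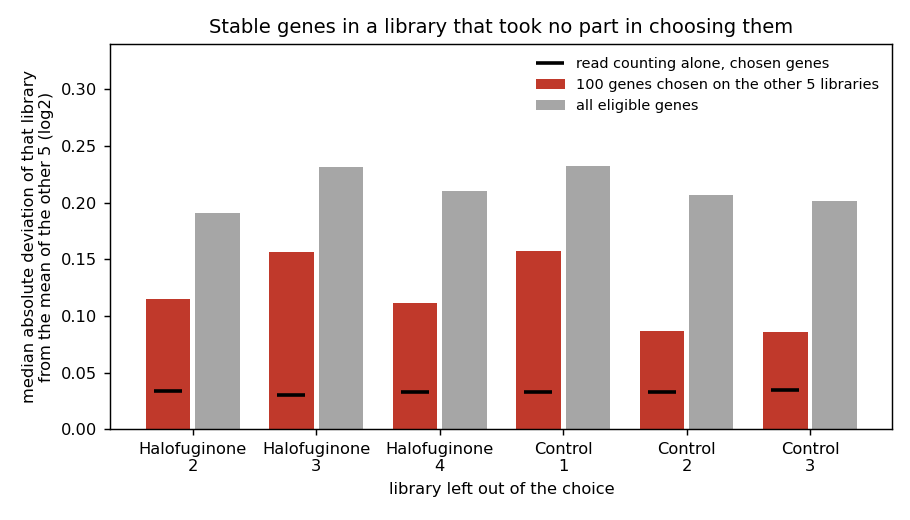
For each library, bars give the median absolute deviation (log2) of that library from the mean of the other 5, for the 100 genes chosen on those 5 (red) and for all eligible genes (grey); black ticks give what read counting alone would leave in the chosen genes. The red bars lie between 0.086 and 0.16, below the grey bars of 0.19 to 0.23 and above the ticks of 0.030 to 0.034.

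Genes were also chosen in 1 group and read in the other. The 100 genes most stable within the 3 halofuginone libraries had a median SD of 0.020 there and of 0.13 in the controls, where the median eligible gene had 0.16. The 100 genes most stable within the 3 controls had a median SD of 0.018 there and of 0.12 in the halofuginone libraries, where the median eligible gene had 0.16. Their absolute log2 difference between the groups had a median of 0.20 when chosen in halofuginone and 0.24 when chosen in controls, against 0.26 and 0.25 for the eligible genes. It was above 1 in 1 gene chosen in halofuginone and in 2 chosen in controls, beside 4.61% and 4.13% of the eligible genes. The largest was 1.61 among those chosen in halofuginone and 1.03 among those chosen in controls. Of the stable genes, 15 were among those chosen in halofuginone and 11 among those chosen in controls, and 1 gene, LOC552692, which is no stable gene, was in both lists.

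How far the list holds depended on the choice that was changed. Each of the 6 choices on 5 libraries kept 50 to 74 of the 100 stable genes, and 30 genes were in all 6, among them the first 10. These 30 all stood in the first 50 places. Leaving out 1 library can raise an SD only a little. The first 10 therefore had to be chosen each time, and their return is no test of them. A further 21 genes were in 4 or 5 of the choices and 49 in 1 to 3, while 214 other genes entered at least 1. LOC727420 alone was in all 6 choices and also among the 100 under each of 3 other ways of scaling the libraries. It had 649, 611 and 691 normalised counts in the halofuginone libraries and 694, 669 and 665 in the controls, and stood at place 38 by SD. All these choices reused the same 6 libraries, so its return is no test of it either.

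The scaling of the libraries and the measure of spread both changed the list. With factors from trimmed means of M values (TMM) 89 stable genes were chosen again, with the upper quartile 67, and with library totals 9, none of them among the first 10. With the coefficient of variation in place of the SD 98 were chosen again, with the counting variance taken off 88, and with geNorm's M, the mean spread of a gene's ratios to the other eligible genes, 73. The last measure uses no scaling factors, but it sets each gene against the other eligible genes in the same 6 libraries. It kept all of the first 10 genes, which is no independent check of the scaling. With the spread taken within groups only, which ignores the group difference, 27 were chosen again. A window of 1000 to 5000 kept 51, which is every stable gene with a mean above 1000.

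Under library totals the stable genes moved together. Their median deviation was then 0.08, 0.18 and -0.11 in Halofuginone 2, 3 and 4 and 0.02, -0.08 and -0.06 in Control 1, 2 and 3, and their median SD was 0.13, against 0.069 with the deposited scaling. Only 6 of them kept an SD within the limit of the list. The median log2 difference between the groups under totals was 0.10 for the stable genes and 0.08 for all genes. The deposited size factors are medians of ratios over genes, so the spread given here is relative to the middle gene, and the total amount of RNA per midgut was not measured.

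**Figure D4:**
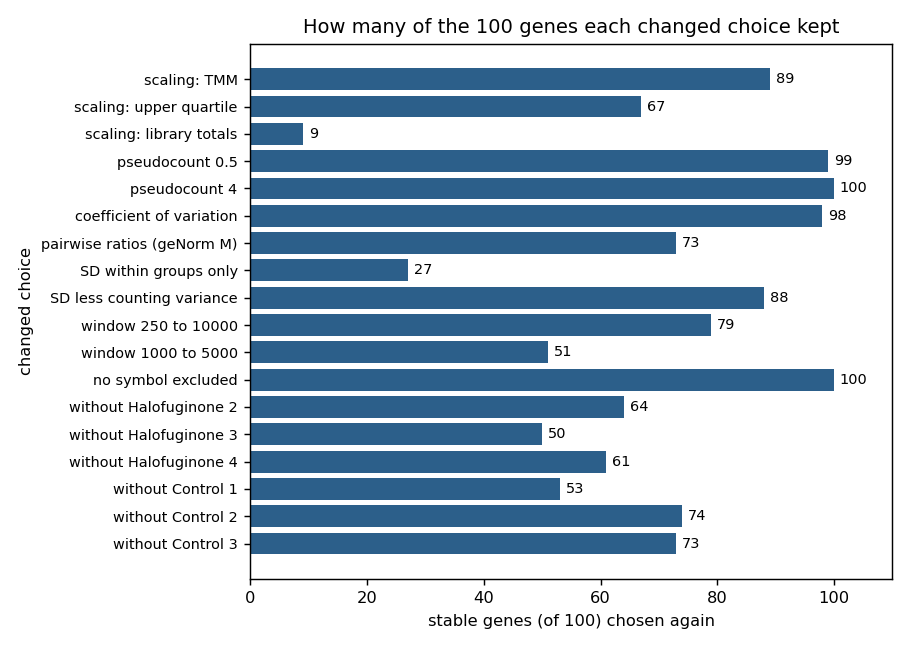
Bars give how many of the 100 stable genes were chosen again when 1 choice was changed at a time, starting at 0. Scaling to library totals kept 9 and the spread within groups 27, while leaving out 1 library kept 50 to 74.

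Genes in common use as references were set beside the stable genes. Of the genes found by symbol 3 are described, and Ef-1a-f1 was added under its spelling in the files. Arp1, actin-related protein 1 by its symbol, had 21597, 19623 and 28775 normalised counts in the halofuginone libraries and 56126, 40662 and 43333 in the controls. Every halofuginone library lay below every control, with means of 23332 ± 4816 in the halofuginone libraries and 46707 ± 8266 in the controls (SD, n = 3 each). Its log2 fold change was -1.01 ± 0.21 (SE) and limma called it lower, at an adjusted p of 0.0401. The call was lost when any 1 library was left out, with adjusted p values between 0.0586 and 0.133 in limma, and the fold change was then -0.87 to -1.17. By its SD of 0.60 Arp1 stood at place 8250 of all 10041 genes.

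The ribosomal protein gene RpL32 was the steadiest of these 4 genes, at place 1440 with an SD of 0.16. It had 13995, 10508 and 14193 normalised counts in the halofuginone libraries and 11655, 12404 and 12448 in the controls. Halofuginone 3 was its lowest library and the groups overlapped, with a log2 fold change of 0.07 and an adjusted p of 0.829 in limma. Ribosomal symbols were left out by the rule and RpL32 also lies above the window of level, so it could not be a stable gene.

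Both genes of elongation factor 1α, which brings aminoacyl-tRNA to the ribosome, varied more. EF1a-F2 had 151651, 154652 and 146382 normalised counts in the halofuginone libraries and 94309, 107351 and 106528 in the controls. Ef-1a-f1 had 1311, 1739 and 1347 normalised counts in the halofuginone libraries and 569, 1259.8 and 1118 in the controls. In both genes every halofuginone library lay above every control. The log2 fold changes were 0.56 ± 0.22 and 0.65 ± 0.30 (SE), with adjusted p values of 0.190 and 0.246 in limma, so neither passed the test. Their SDs of 0.31 and 0.55 put them at places 4963 and 7889 of all genes.

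**Figure D5:**
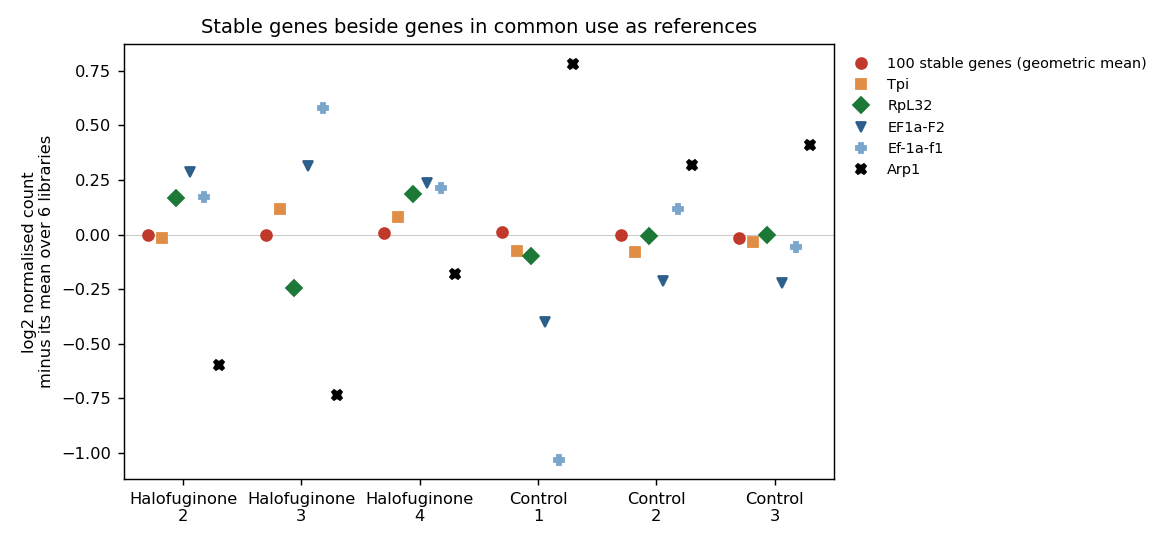
Points give the log2 normalised count minus its mean over the 6 libraries for the geometric mean of the 100 stable genes, for Tpi and for 4 genes in common use as references, in the halofuginone libraries and then the controls. The stable genes stay near 0 (SD 0.0091), RpL32 has an SD of 0.16, and Arp1, with an SD of 0.60, lies below 0 in each halofuginone library and above 0 in each control. The 100 stable genes were chosen for a small spread under this scaling and are averaged here. The 4 reference genes are shown singly and were not chosen by spread, so the contrast is no test.

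The count of called genes was taken again with the stable genes and with Arp1 as the reference. Scaled to the geometric mean of the 100 stable genes, limma called 241 genes, 167 higher and 74 lower, against 238 with the deposited scaling. Scaled to the first 10 stable genes it called 235. The factors from the 100 stable genes differed from the deposited size factors by -0.931% to 0.856%. The stable genes were chosen for a small spread under those same size factors, so their factors and counts of calls had to come out close to the deposited ones, and this is no test of them as references. Scaled to Arp1 alone, limma called 4404 genes, of which 4387 were higher and 17 lower. The median log2 fold change over all genes was then 0.99, and that of the stable genes 1.01, with 59 of the 100 called and all 100 past the adjusted p of 0.05. Scaling to Arp1 shifts all genes of a library alike, so these medians return its own log2 fold change of -1.01 with the sign turned. The stable genes, chosen for a small spread, had to shift together, so their counts are no further evidence on Arp1. Leaving out 1 library moved the 59 a long way: 28, 6 and 100 stable genes were called without Halofuginone 2, 3 and 4, and 1, 92 and 78 without Control 1, 2 and 3. All 100 still passed the adjusted p, except without Halofuginone 2, where 92 did. The factors from Arp1 differed from the size factors by -39.9% in Halofuginone 3 to 72.0% in Control 1.

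Some of the stable genes share ground with other genes. In the gene table used for names, 29 of the 100 overlap another listed gene, among them LOC409075 and LOC409427 of the first 10 and Tpi. The sources used here do not say whether counting used strand, so reads of such pairs may not be told apart. One pair of stable genes, LOC552034 and LOC410169, are neighbours in that table, and the other stable genes are not next to each other.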

How the data were processed

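The 3 deposited tables hold 1 halofuginone and 1 control column each. The deposited values are normalised counts, a signal for which the authors divided the reads of every gene by a factor of its library. Whole reads came back for 100% of values within a tolerance of 0.01 reads, and the size factors equal those of the median-of-ratios method, 0.927 to 1.16. The submitters' processing notes name Trimmomatic 0.36, STAR, Subread and DESeq2, and the study's methods name the assembly Amel 4.5. Listed genes had at least 61 reads over the 6 libraries.

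Groups came from the sample titles. limma 3.58.1 (R 4.3.3, group only, variance trend, Benjamini-Hochberg adjustment) was run on log2(value + 1) over all 10041 genes, without a filter. DESeq2 1.42.0 and edgeR 4.0.16 took the recovered reads as alternatives. Changes are on the log2(value + 1) scale. The counting SD is 1/(ln 2 × square root of reads) and covers counting error only. The fits were tested on simulated data. Python 3.11.15, numpy 2.4.6 and pandas 2.3.3 did the rest.

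The members, marker and reference lists were chosen with earlier results of these data known. Genes named are the first 10 by SD, the 3 on either side of place 100, the 3 highest and 3 lowest by mean and by log2 difference, members with a symbol other than LOC, and the reference genes found, of which 1 is not reported here. Names and overlaps are from the RefSeq table of assembly Amel_HAv3.1, which held 9225 of the 10041 symbols and all 100 members. As it is another build than that of the reads, no coordinates are given.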

Additional observations from a re-analysis of the deposited data

How the results depend on the processing

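Under no alternative of the fit to the deposited values did a stable gene pass an adjusted p of 0.05. The rule chose these genes for a small spread in the same libraries, so nothing is read from this. The stable genes' median absolute log2 difference of 0.04 was 0.042 to 0.057 when 1 library was left out and 0.095 under library totals. The count of called genes over all genes, 238, was within 1.5 times of that in 12 of 18 alternatives. It was 47 to 277 when 1 library was left out (126 without Halofuginone 4, 63 without Control 2 and 47 without Control 3), 385 with DESeq2 and 7 with the deposited table as a block. Numbers 2 and 3 are shared by both groups. The deviations of same-numbered libraries had correlations of 0.071 and -0.033 over genes. Halofuginone 2 with Control 3 had 0.161, and Halofuginone 3 with Control 2 had -0.145. So few libraries cannot decide whether the numbers pair the bees. With the replicate number as a block 3 genes were called, against 203 in the same 4 libraries without it, a comparison added after seeing the data. The count after scaling to the stable genes, 241, was 48 to 271 when 1 library was left out (132 without Halofuginone 4, 57 without Control 2 and 48 without Control 3), and that after scaling to Arp1, 4404, was 3171 to 5797. The stable genes chosen again numbered 50 to 74 when 1 library was left out, 9 under library totals, 27 with the spread within groups and 51 in the window of 1000 to 5000, the last because that window holds no more of them. The other causes were not tested. For Arp1 the call was also lost without the variance trend (adjusted p 0.0659 in limma), under both blocks (0.0858 and 0.130) and under library totals, where the log2 fold change was -0.92. Over 31 named genes, 586 of 651 single values stayed within their spread or on their side of the threshold. Of 558 log2 fold changes among them, 44, in 18 genes none of which was called, had the other sign. With 3 bees a group, an SD over 6 libraries is itself imprecise, and at this depth counting error alone gives a median SD of 0.045 in the stable genes.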
